A study of Mus musculus with 2 samples.

Results

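The 56 genes described here encode the machinery of the endoplasmic reticulum (ER) that carries new secretory proteins into the lumen, cleaves, glycosylates and folds them, disposes of those that misfold, and senses overload. They were taken by name from a list of ER translocation, folding and stress genes compiled from known function, and for each the brightest probe set was read, by log2 signal averaged over the arrays. Of the 56, 55 had a probe set listed with that gene symbol alone, and all 55 entered the comparison, out of 11671 genes that did. The remaining member, Sec61g, a small subunit of the protein channel, was listed only on a probe set shared with other symbols and has no value here.

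Both samples were ventral prostate of 3-month-old male mice on the C57BL/6J background. 1 sample was labelled U19/Eaf2 -/-, the genotype that lacks the androgen-induced transcription elongation partner U19/Eaf2, and the other was labelled wild type, U19/Eaf2 +/+. Each genotype had 1 array, so no test, standard deviation or p-value is possible and every statement describes these 2 arrays. No treatment is named for either sample. The sources used here give neither the form of the deletion nor whether several animals were pooled, though the titles speak of prostates in the plural.

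The ventral prostate is a secretory lobe whose luminal cells release large amounts of protein, all of which passes through the ER. The signal recognition particle brings ribosomes to the Sec61 channel, signal peptidase and oligosaccharyltransferase modify the entering chain, and chaperones and disulfide isomerases fold it. When unfolded protein builds up, the membrane sensors Ire1, Perk and Atf6 start the unfolded protein response, which raises transcription of chaperones and of genes for ER-associated degradation.

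The Eaf2 probe set read 702 on the array labelled knockout and 691 on the wild-type array, so the labels were not borne out by the targeted transcript. That probe set checks nothing if it lies outside the deleted part. The array is therefore called the KO-labelled array, and all directions rest on the label. Median signal over 45101 probe sets was 154 on the KO-labelled array and 177 on the wild-type array. The ratio of 3' to 5' control signal, a guide to RNA integrity, was 1.65 on the KO-labelled array and 1.25 on the wild-type array for Actb. For Gapdh it was 0.847 on the KO-labelled array and 0.714 on the wild-type array. Their part in the results below was not tested.

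As reported, the median and the share above 0 of the ER genes were close to those of all genes, though the share moved apart under other processing. Their median log2 ratio of KO-labelled over wild-type signal was -0.02, beside -0.03 over all 11671 genes, and 26 of 55 were above 0, or 47.3%, beside 47.0% of all genes. With each array centred on its median, 45 of 55 were above 0, or 81.8%, beside 68.2% of all genes. A single member, the disulfide isomerase Pdia4, was higher by 2-fold or more, beside 0.591% of all genes, and 0 were lower by as much, beside 0.883%. At 1.5-fold, 3 members were higher (Pdia4, Ern1 and Sec63) and 1 was lower (Sdf2l1), beside 4.69% and 6.26% of all genes. All 55 members were above the floor on both arrays, a signal of 166 below which values were raised. The only spread the data hold is between a gene's own probe sets, 0.353 (SD of the log2 ratio per probe set, from 4497 genes), which covers probe-level error and no animal. The ratios of 45 of 55 members lay within that SD, 81.8% beside 69.0% of all genes. Among the 978 genes inside the members' interquartile signal range, 72.1% did. Of the members, 5 lay above it and 5 below it. Those above were Pdia4, Ern1, Sec63, Srp19 and Stt3a, and those below were Sdf2l1, Hyou1, Derl3, Ssr4 and Ssr2. These counts and names hold as reported. With each array centred on its median, Canx at 0.53 and Eif2ak3 at 0.54 were among others above the SD. Ssr4 at -0.31 and Ssr2 at -0.26 then lay within it.

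**Figure D1:**
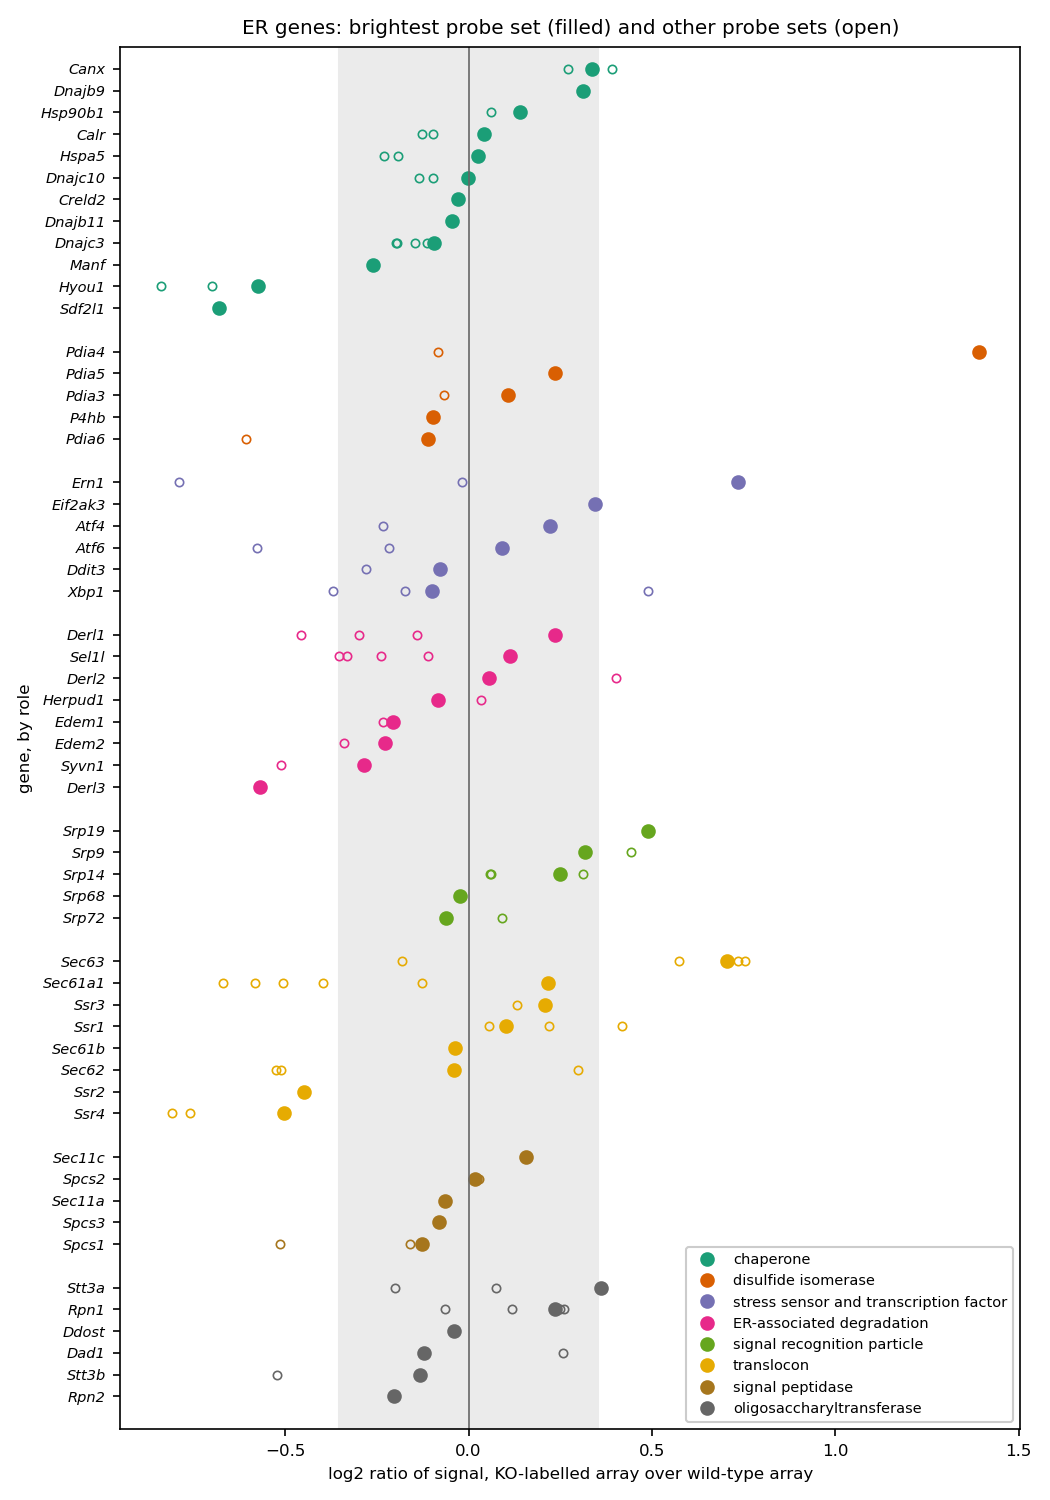
Log2 ratio of signal, KO-labelled over wild-type array, for 55 ER genes grouped by role and ordered within it. Filled points are the brightest probe set of each gene, open points its other probe sets that reached the floor, and the grey band is the probe-set SD of 0.353 on either side of 0. Pdia4 at 1.39 stands alone on the right, and the lowest filled point is Sdf2l1 at -0.68.

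The share of ER genes above 0 lay on either side of that of all genes, depending on the processing. Besides the 81.8% against 68.2% under median centring, it was 41.8% against 50.01% after loess and 34.5% against 43.9% with the probe set closest to 0. Centring each array on its median raised the median of all genes by 0.19, to 0.16, and that of the ER genes to 0.17, and changed the sign of 19 members, those only slightly below 0. Small negative ratios below are to be read with that shift. Loess moved the medians of the gene groups the other way, though by less, as given at the end. The median of the ER genes minus that of all genes lay between -0.06, under loess, and 0.05, with no floor. Over the alternatives that gave a member a value, at most 10, the ratio kept its sign in 22 of 55 members. For 10 of these a single probe set reached the floor, so that choosing among probe sets could not turn their sign. Among the 37 members with more, 12 kept their sign, 7 higher (Canx, Hsp90b1, Srp9, Srp14, Ssr1, Ssr3 and Stt3a) and 5 lower (Hyou1, Ssr4, Syvn1, Edem1 and Edem2). Some kept it narrowly, such as Ssr1 at 0.015 under loess and Edem1 at -0.012 under median centring.

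**Figure D2:**
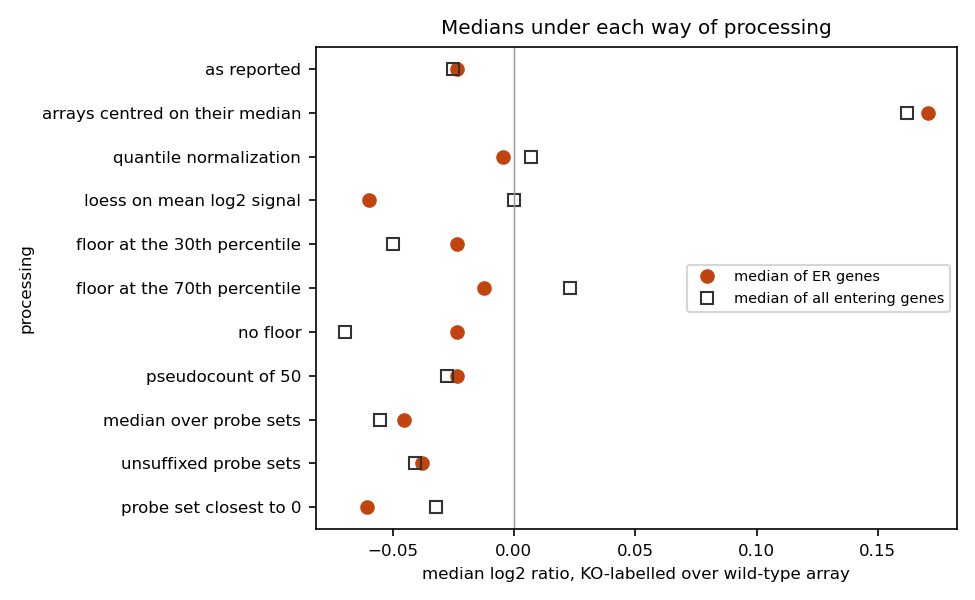
Median log2 ratio of the ER genes (filled) and of all entering genes (squares) as reported and under 10 alternatives, KO-labelled over wild-type array. Both medians move to 0.17 and 0.16 when the arrays are centred on their medians, and elsewhere lie between -0.07 and 0.02.

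The ratio over all genes moved with signal, and the ER genes were mostly bright. Among the brightest 3587 probe sets, the top bin of 5, the median log2 ratio was -0.06 over the 90 that belonged to ER genes and 0.07 over the whole bin. The 27 members whose mean signal lay inside the interquartile range of the members, 3363 to 12851, had a median of -0.06, with 8 above 0, or 29.6%. All 978 genes in that range, these 27 included, had a median of 0.11, and 62.5% of them were above 0. The 28 members outside the range had a median of 0.07, with 18 above 0. When a loess curve of ratio on signal was subtracted, the median of all 55 ER genes was -0.06 against 0.00 over all genes. The size of these gaps relative to variation between animals was not tested.

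**Figure D3:**
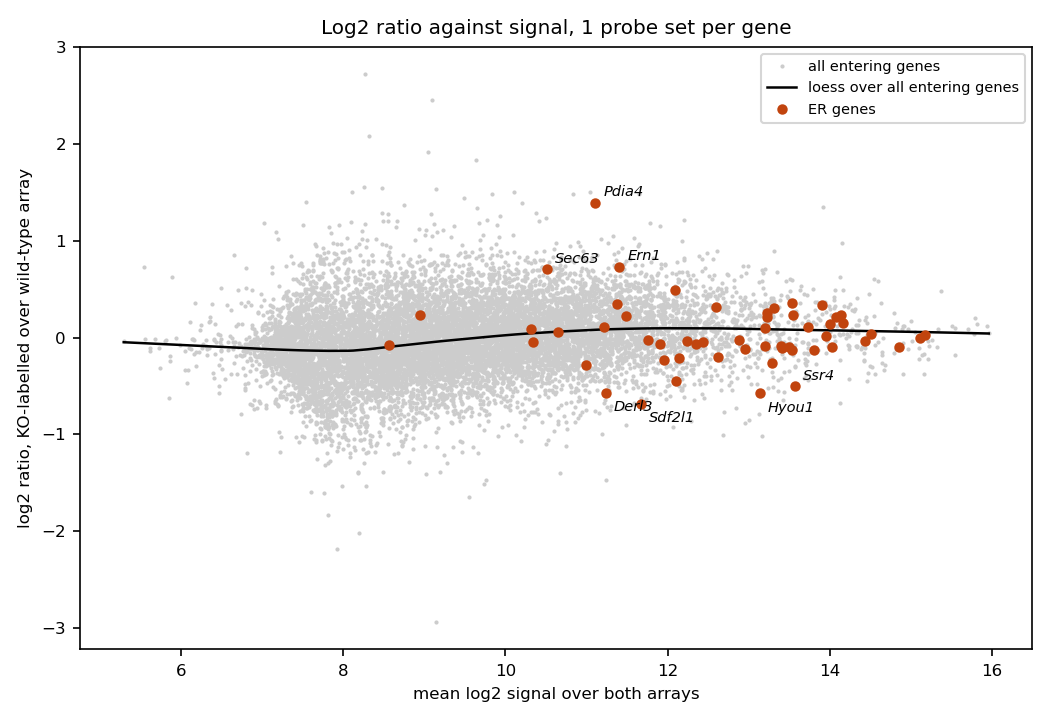
Log2 ratio, KO-labelled over wild-type array, against mean log2 signal, for 11671 genes in grey and 55 ER genes in colour, with the loess curve over all genes. The curve lies above 0 where most ER genes lie, and named genes differ by more than 0.5 on the log2 scale.

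**Figure D4:**
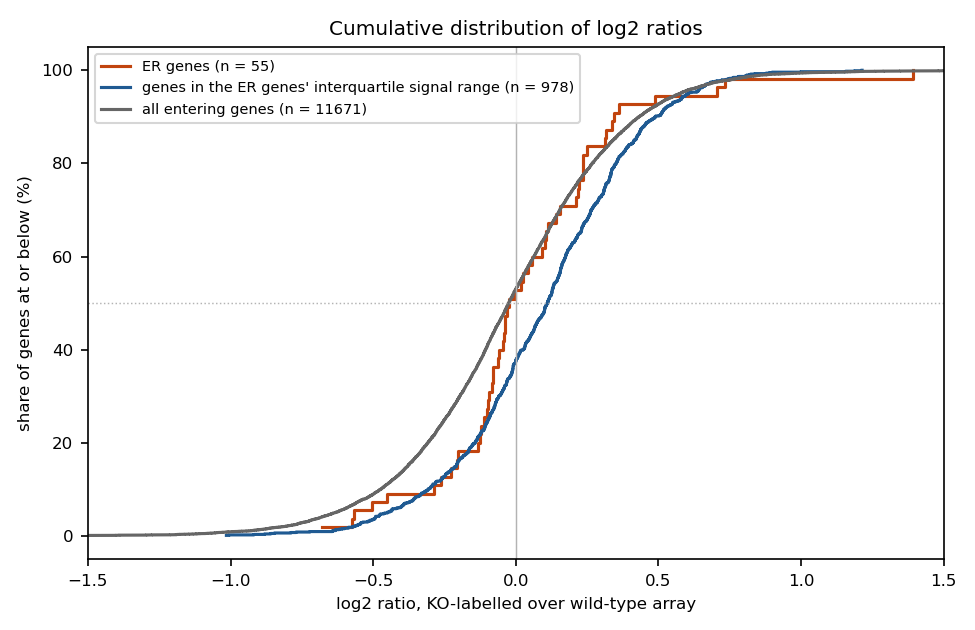
Cumulative share of genes by log2 ratio for the 55 ER genes, the 978 genes in their interquartile signal range and all 11671 entering genes. The ER genes cross the 50% line at -0.02, near all genes at -0.03 and left of the genes in that signal range at 0.11.

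Different probe sets of a gene often went opposite ways. Of 37 members with at least 2 probe sets reaching the floor, 19 had all of them on the same side of 0, or 51.4%, beside 42.6% of 5172 genes. Of these 19, 8 were higher and 11 lower on the KO-labelled array. The brightest probe set had a higher ratio than the median of the gene's others in 27 of 34 members measured on both arrays, beside 63.2% of 4497 genes. Direction is given below with that in mind, and genes whose probe sets all went the same way are named as such.

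Chaperones, the proteins that hold and refold chains in the lumen, were near 0 as a group, with a median of -0.02, or 0.18 under median centring, and 5 of 12 above 0. Hspa5, the Hsp70 chaperone BiP and the usual readout of ER stress, read 37345 on the KO-labelled array and 36669 on the wild-type array, a log2 ratio of 0.03. Its other probe sets read 15436 and 2678 on the KO-labelled array, against 18115 and 3060 on the wild-type array, with ratios of -0.23 and -0.19. As reported, BiP signal was thus level or slightly lower, depending on the probe set. Under median centring its brightest probe set had 0.22. Hsp90b1, the ER Hsp90 known as Grp94, read 17193 on the KO-labelled array and 15592 on the wild-type array, a ratio of 0.14. Of the lectin chaperones that hold glycoproteins, Calr was level at 0.04 with both other probe sets below 0. Canx, its membrane-bound relative, read 17278 on the KO-labelled array and 13692 on the wild-type array. All 3 Canx probe sets were higher, with log2 ratios from 0.27 to 0.39.

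Hyou1 and Sdf2l1 were the lowest chaperone genes. Hyou1, the large ER Hsp70 relative that helps BiP release its nucleotide, read 7361 on the KO-labelled array and 10956 on the wild-type array, 1.49-fold lower. Its other probe sets read 485 and 198 on the KO-labelled array, against 788 and 354 on the wild-type array, and all 3 had ratios from -0.84 to -0.57, outside the probe-set SD. Sdf2l1, an ER-resident partner of the BiP system, read 2575 on the KO-labelled array and 4128 on the wild-type array, a ratio of -0.68 in its only probe set. Manf, a stress-induced ER protein that can be secreted, followed at 9099 on the KO-labelled array and 10907 on the wild-type array, a ratio of -0.26, and Creld2, another ER stress-induced protein, was level at -0.03.

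The J-domain partners that direct BiP to its substrates did not share a direction. Dnajb9, known as ERdj4, read 11284 on the KO-labelled array and 9096 on the wild-type array, a ratio of 0.31 in its only probe set. Dnajb11 had -0.05. Dnajc10, a reductase with a J domain, had -0.0014 in its brightest probe set and down to -0.14 in its others. Dnajc3, the inhibitor of Perk known as p58IPK, had 5 probe sets, all slightly lower, from -0.20 to -0.09, about the size of the 0.19 by which median centring moved all genes or less. Apart from Hyou1 and Sdf2l1, the other 10 chaperone genes lay within the probe-set SD in their brightest probe set, as reported. Under median centring, Canx at 0.53 and Dnajb9 at 0.51 lay above it.

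Among the disulfide isomerases, which form and shuffle disulfide bonds, Pdia4 stood alone. Pdia4, known as ERp72, read 3584 on the KO-labelled array and 1364 on the wild-type array, 2.63-fold higher, a ratio above that of 99.9% of all genes. Its other probe set went the opposite way, at 75.6 on the KO-labelled array and 176 on the wild-type array, the first of these below the floor. The 2-fold difference in Pdia4 therefore rests on a single probe set. P4hb, the archetypal isomerase, read 28672 on the KO-labelled array and 30673 on the wild-type array, a ratio of -0.10. Pdia3, the partner of calnexin and calreticulin, had 0.11, and Pdia5, another family member, read 537 on the KO-labelled array and 456 on the wild-type array, a ratio of 0.24. Pdia6, which acts with BiP, read 10443 on the KO-labelled array and 11271 on the wild-type array, a ratio of -0.11. The second Pdia6 probe set was also lower, at 119 on the KO-labelled array, below the floor, and 253 on the wild-type array.

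The sensors and transcription factors of the unfolded protein response had a median of 0.16, with 4 of 6 above 0, but their probe sets disagreed. The median was -0.08 when each gene took the median over its probe sets, and 0.35 under median centring. Ern1, which encodes the sensor Ire1, read 3493 on the KO-labelled array and 2100 on the wild-type array in its brightest probe set, 1.66-fold higher. Its next probe sets read 477 and 182 on the KO-labelled array, against 483 and 315 on the wild-type array, the first level and the second lower with a ratio of -0.79. Eif2ak3, the kinase Perk that slows translation, read 2995 on the KO-labelled array and 2360 on the wild-type array, a ratio of 0.34 in the only probe set above the floor. Atf6, the sensor that is cut in the Golgi to release a transcription factor, read 1312 on the KO-labelled array and 1231 on the wild-type array, a ratio of 0.09. Its other 2 probe sets had -0.58 and -0.22.

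The effector transcription factors were close to level. Xbp1, whose mRNA Ire1 splices into its active form, read 16124 on the KO-labelled array and 17290 on the wild-type array, a ratio of -0.10. Of its other 3 probe sets, 2 were lower, at -0.37 and -0.17, and 1 was higher, at 0.49. Spliced and unspliced Xbp1 were not distinguished here. Atf4, translated when Perk is active, read 3095 on the KO-labelled array and 2656 on the wild-type array, a ratio of 0.22, and its other probe set above the floor had -0.23. Ddit3, the proapoptotic factor Chop, read 368 on the KO-labelled array and 388 on the wild-type array, and both its probe sets were lower, at -0.08 and, with 1 array below the floor, -0.28.

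**Figure D5:**
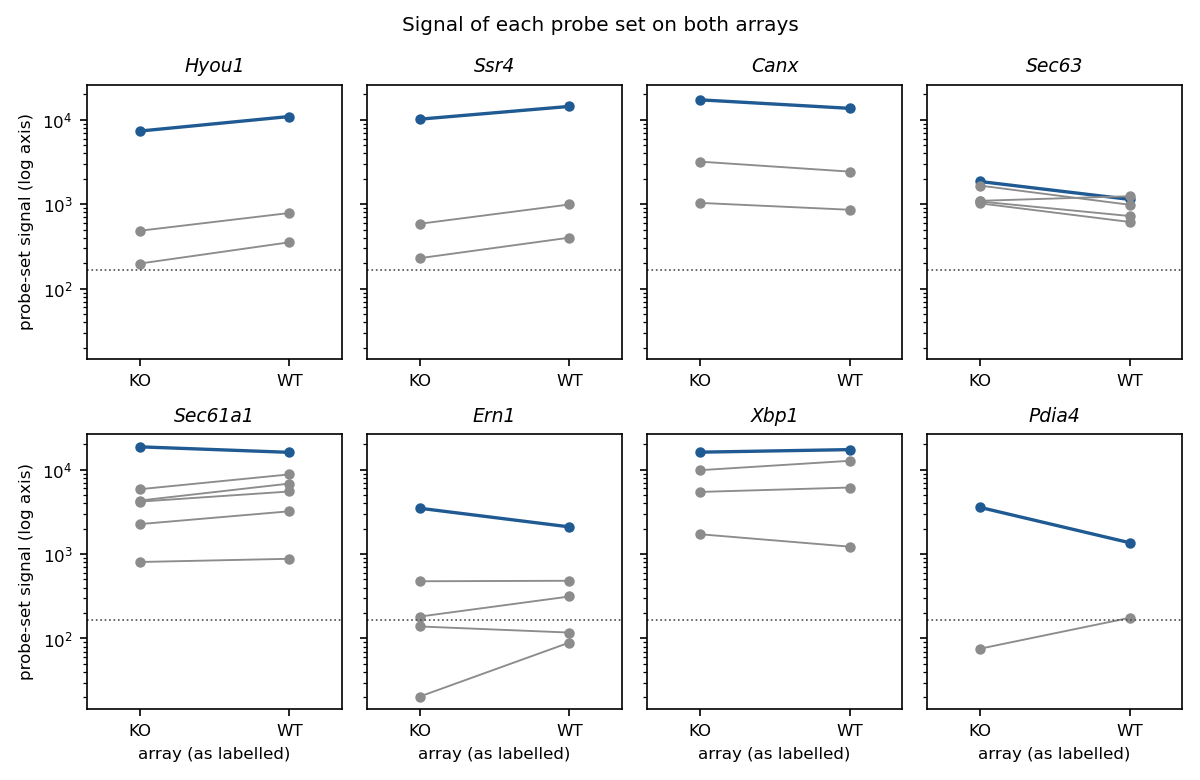
Signal of every single-symbol probe set on the KO-labelled (KO) and wild-type (WT) array, on a log axis, for 8 ER genes. The brightest probe set is drawn in blue, the others in grey, and the dotted line is the floor of 166. All lines of Hyou1 and Ssr4 run lower in KO and all of Canx higher, whereas the lines of Sec63, Sec61a1, Ern1, Xbp1 and Pdia4 go both ways.

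Genes of ER-associated degradation, which returns misfolded proteins to the cytosol for the proteasome, had a median of -0.15, with 5 of 8 below 0, whereas under median centring the median was 0.05. Derl3, of the derlin family that serves retrotranslocation, was the lowest, at 1979 on the KO-labelled array and 2936 on the wild-type array, 1.48-fold lower in its only probe set. Syvn1, the ubiquitin ligase Hrd1, read 1851 on the KO-labelled array and 2257 on the wild-type array, a ratio of -0.29, and its other probe set had -0.51. The mannosidase-like genes Edem1 and Edem2, which mark glycoproteins for disposal, were lower in all their probe sets as reported. Ratios ran from -0.23 to -0.21 for Edem1 and from -0.34 to -0.23 for Edem2. Under median centring their brightest probe sets were level, at -0.01 and -0.03.

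The remaining degradation genes were higher or level in their brightest probe set. Derl1 read 13001 on the KO-labelled array and 11051 on the wild-type array, a ratio of 0.23, while its other 3 probe sets were lower, from -0.46 to -0.14. Sel1l, the adaptor of Hrd1, read 2478 on the KO-labelled array and 2291 on the wild-type array, a ratio of 0.11 in its brightest probe set and from -0.35 to -0.11 in the other 4. Derl2 was higher in both probe sets, at 0.06 and 0.40. Herpud1, a stress-induced component of the Hrd1 complex, was level at -0.08 and 0.03.

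The signal recognition particle genes had a median of 0.25, or 0.44 under median centring, with 3 of 5 above 0. Srp19, which helps the particle's RNA assemble, read 5165 on the KO-labelled array and 3683 on the wild-type array, a ratio of 0.49 in its only probe set. Srp9 read 6921 on the KO-labelled array and 5554 on the wild-type array, a ratio of 0.32, and its other probe set had 0.44. Srp14, which pairs with Srp9 in the domain that pauses elongation, read 10454 on the KO-labelled array and 8795 on the wild-type array, and all 4 of its probe sets were higher, from 0.06 to 0.31. Srp68 and Srp72, which bind each other on the other domain, were level. Srp68 read 7486 on the KO-labelled array and 7609 on the wild-type array, a ratio of -0.02. Srp72 had -0.06 and 0.09 in its probe sets. When each gene took whichever probe set was nearest 0, the group's median was 0.06.

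Translocon genes were split by subunit, with a median of 0.03 and 4 of 8 above 0. Sec63, the J-domain membrane protein that couples BiP to the channel, read 1862 on the KO-labelled array and 1143 on the wild-type array, 1.63-fold higher. Of its other 4 probe sets, 3 were higher, at 0.57, 0.73 and 0.76, and 1 was lower, at -0.18. Sec62, its partner, was level at -0.04 with others from -0.53 to 0.30. Sec61a1, the pore itself, read 18660 on the KO-labelled array and 16048 on the wild-type array in its brightest probe set, a ratio of 0.22. Its other 5 probe sets were all lower, from -0.67 to -0.13. With the median over probe sets, Sec61a1 had -0.45 and the translocon group -0.16. Sec61b, a small subunit of the channel, was level at -0.04.

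The translocon-associated protein complex, 4 subunits that sit beside the Sec61 channel, had members on either side of 0. Ssr4 read 10186 on the KO-labelled array and 14437 on the wild-type array, 1.42-fold lower, and its other probe sets read 587 and 230 on the KO-labelled array, against 994 and 402 on the wild-type array. All 3 lay from -0.81 to -0.50, outside the probe-set SD, though the brightest had -0.31 under median centring, within it. Ssr2 read 3751 on the KO-labelled array and 5125 on the wild-type array, 1.37-fold lower in its only probe set. Ssr1 and Ssr3 were higher in every probe set above the floor, from 0.05 to 0.42 over 4 probe sets of Ssr1 and from 0.13 to 0.21 over 2 of Ssr3.

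Signal peptidase, which cuts the signal sequence, had a median of -0.06, or 0.13 under median centring, and all 5 genes within the probe-set SD. Its catalytic subunits Sec11a and Sec11c had -0.06 and 0.16, with Sec11c at 19267 on the KO-labelled array and 17301 on the wild-type array. The accessory subunits Spcs1, Spcs2 and Spcs3 had -0.13, 0.02 and -0.08. Spcs1 read 11384 on the KO-labelled array and 12428 on the wild-type array, and all 3 of its probe sets were lower, down to -0.52.

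Oligosaccharyltransferase, which adds the N-linked glycan, had a median of -0.08, or 0.11 under median centring, with 2 of 6 above 0. The alternative catalytic subunits differed in sign. Stt3a, which glycosylates chains as they enter, read 13466 on the KO-labelled array and 10482 on the wild-type array, a ratio of 0.36, with 0.08 and -0.20 in its other probe sets. Stt3b, which acts on sites that were skipped, read 13682 on the KO-labelled array and 14989 on the wild-type array, a ratio of -0.13, and -0.52 in its other probe set. Rpn1 read 19525 on the KO-labelled array and 16571 on the wild-type array, a ratio of 0.24, with 4 of 5 probe sets above the floor higher. Rpn2 read 5885 on the KO-labelled array and 6778 on the wild-type array, a ratio of -0.20 in its only probe set. Ddost was level at -0.04, and Dad1 had -0.12 and 0.26 in its 2 probe sets.

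Some promoters of these genes hold a known stress-response element. The ER stress response element (ERSE), CCAAT followed by 9 bases and CCACG, is bound by the factor NF-Y on its left part and by Atf6 or Xbp1 on its right. It was searched on both strands from 250 bases before to 50 after the start site in RefSeq promoters of build GRCm38.p6, which held 46 of the 56 members. It was present in 9 of 46 members, 19.6%, and in 37 of 27025 genes in the table, 0.137%. Members were chosen by known function, ER stress included, so the higher share is not independent of that choice. The sequences below are shown because they carry the element in a gene that was level and in the highest and the 2 lowest of its holders. Each runs 5' to 3' on the gene's own strand, with the letters of the element in capitals, and where it faces the other way it reads CGTGG, then ATTGG.
Hspa5, chr2:34772010-34772058, plus strand: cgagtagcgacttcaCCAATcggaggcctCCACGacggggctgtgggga
Canx, chr11:50325785-50325833, minus strand: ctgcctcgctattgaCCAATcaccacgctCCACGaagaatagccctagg
Syvn1, chr19:6046517-6046565, plus strand: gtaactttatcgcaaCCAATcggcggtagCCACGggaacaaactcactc
Derl3, chr10:75893227-75893275, plus strand: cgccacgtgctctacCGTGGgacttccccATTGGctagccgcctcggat

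Genes with the element had ratios on both sides of 0. The 9 holders were Hspa5, Hsp90b1, Calr, Canx, Dnajc3, Creld2, Pdia6, Derl3 and Syvn1, and their ratios ran from -0.57 in Derl3 to 0.34 in Canx, with 4 above 0 and a median of -0.03. The 36 measured members with a promoter in the table and no match had a median of -0.02, with 17 above 0. In Hspa5 the element began 65 bases before the start site, and in Syvn1, 44 bases before it. Hsp90b1 held the element 2 times, once on each strand. The related ERSE-II, ATTGG followed by 1 base and CCACG, was found in 2 of 46 members, Herpud1 and Dnajb11, and in 12 of 27025 genes, 0.0444%. That share too is not independent of how members were chosen. It is shown for Herpud1, whose human counterpart is a textbook case of it.
Herpud1, chr8:94386362-94386402, plus strand: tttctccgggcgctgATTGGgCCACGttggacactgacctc

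Other motifs were no more frequent in these genes than elsewhere. The core TGACGTG, a site type bound by Xbp1 and Atf6, was found in 1 of 46 members, Hspa5, 2.17%, and in 2.22% of genes. It did not overlap the ERSE there. The C/EBP-ATF element to which Atf4 binds, searched as TGATGNAA, was found in 1 of 46 members, Herpud1, and in 4.51% of genes. A match describes letters in this window and no binding was measured.

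Other genes of the same pathway, 65 of them in 4 lists, were read for comparison, and 61 entered. Their median was -0.05, with 27 above 0, none higher by 2-fold, beside 0.591% of all genes, and 2 lower by that much, Fkbp7 and Srprb, beside 0.883%. Under median centring these counts turned round, with 2 higher, Selenos and Ubxn4, and 0 lower, and the median was 0.15. The counts over all genes turned round too, from 69 higher and 103 lower of 11671 to 161 higher and 33 lower of 11633. Other folding enzymes had a median of -0.07 over 20 genes, or 0.13 under median centring. The prolyl isomerases Fkbp7 and Fkbp14 were the lowest, Fkbp7 at 248 on the KO-labelled array and 501 on the wild-type array, 2.02-fold lower, and Fkbp14 at -0.54. The calcium-binding Rcn1 and the isomerase Txndc5 were the highest, at 0.44 and 0.30, Txndc5 with an opposite probe set at -0.14.

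Other ER-associated degradation genes had a median of 0.12 over 14 genes. Selenos, the selenoprotein that recruits the Vcp extraction motor to the membrane, read 25452 on the KO-labelled array and 12931 on the wild-type array, 1.97-fold higher. All 3 of its probe sets were higher, with 0.28 and 0.86 in the others. Ubxn4, another Vcp adaptor, was 1.77-fold higher at 4792 on the KO-labelled array and 2709 on the wild-type array, with 0.28 and -0.29 in its other probe sets. The lowest of that list were Faf2 at -0.20 and Nploc4 at -0.19.

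Other translocation and glycosylation genes had a median of -0.13 over 12 genes, or 0.06 under median centring, with 3 above 0. Srprb, the membrane anchor of the receptor for the signal recognition particle, read 992 on the KO-labelled array and 2130 on the wild-type array, 2.15-fold lower, with -0.28 and 0.07 in its other probe sets. Sec61a2, a second pore gene, was lower in both probe sets, at -0.70 and -0.66. Magt1, of the Stt3b form of oligosaccharyltransferase, had 0.37 and Bcap31, an ER membrane escort, 0.13, each higher in both its probe sets.

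Other stress regulators and Atf4 targets had a median of 0.05 over 15 genes, or 0.24 under median centring, with 8 above 0. Ppp1r15a, known as Gadd34, which reverses the Perk arrest, was the lowest, at 443 on the KO-labelled array and 604 on the wild-type array, a ratio of -0.45 in its only probe set. Chac1, an Atf4 target, had -0.33 at 180 on the KO-labelled array and 227 on the wild-type array. The rest of the 7 genes below 0 were Atf3 at -0.33, Mbtps1 at -0.30, Asns at -0.24, Trib3 at -0.23 and Wfs1 at -0.04. The list mixes regulators and targets, so its median does not describe either alone. The protease gene Mbtps2, which cuts Atf6, was the highest at 0.34, and Creb3l2, a membrane-bound transcription factor, had 0.27 in its brightest probe set and 0.20 in the other.

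Markers of the cells in the gland were read beside these values, since in whole tissue fewer cells of a type and less RNA per cell cannot be told apart. Of 11 luminal secretory markers, whose cells carry most of the gland's ER, 8 had a probe set, all above the floor. They summed to 159632 on the KO-labelled array and 173897 on the wild-type array, with a median of -0.09. The largest gaps in signal were in 2 secretory products. Pbsn read 26812 on the KO-labelled array and 34870 on the wild-type array, and Msmb 32270 and 41774. In all, 5 markers were below 0, and Krt8, Tmprss2 and Spink1 were above it. Of 10 plasma and B cell markers, another ER-rich type, 9 had a probe set and summed to 4737 on the KO-labelled array and 3988 on the wild-type array, and the 6 that entered had a median of -0.05. Without Ighm, whose other 3 probe sets were all lower, from -0.70 to -0.24, the sums were 2085 on the KO-labelled array and 2153 on the wild-type array. Cd79a, Cd79b and Tnfrsf17 were below the floor on both arrays. Smooth muscle markers summed to 37359 on the KO-labelled array and 50526 on the wild-type array, with 6 of 7 lower and a median of -0.52, and fibroblast markers to 18357 on the KO-labelled array and 21578 on the wild-type array, with 6 of 6 lower and a median of -0.32. Adipocyte markers summed to 3176 on the KO-labelled array and 1566 on the wild-type array, with 3 of 5 higher and a median of 0.62. That median is the value of Adipoq, whose wild-type signal of 13.8 was raised to the floor, so it is a lower bound. The largest gap in the adipocyte sum was in Car3, at 1278 on the KO-labelled array and 234 on the wild-type array. Fabp4 had 0.84 and, in its other probe set, 0.03, and Plin4 and Retn were lower, at -0.31 and -0.18. Macrophage markers, with 5 of 5 entering, had a median of 0.10, and of 4 basal epithelial markers 3 entered, with a median of 0.04 and Krt14 below the floor on both arrays. These marker values are as reported, and median centring, which raised the median of all genes by 0.19, was not read for them. The part of these cell types in the ER gene values was not tested.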

How the data were processed

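Total RNA of ventral prostate, 5 ug per sample per the labels, was hybridised as biotin-labelled cRNA to an Affymetrix mouse array, 1 array per genotype. The deposited values were linear probe-set intensity (signal) values. GCOS 1.4 is named in the submitters' processing notes, with settings not given in the sources used here. Without the highest and lowest 2% of values, the mean was 500.0 on both arrays, the value that global scaling gives.

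From there, genes were assigned by GEO's platform annotation, in which 34945 probe sets had a single symbol. All 55 named members matched a RefSeq gene table by Entrez ID, and 0 symbols differed. Of the list entries outside the members, 9 were matched through older symbols. Each gene took its brightest probe set by mean log2 signal. It entered if either array reached the floor, the 50th percentile of pooled non-control signals, and lower values were raised to it. Fold thresholds of 2 and 1.5 were read on log2 ratios, and a list was described by its median and counts. No p-value was computed, since 1 array per genotype sets the precision. The calculations were tested on simulated data.

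The members and lists were chosen with earlier results of these data known. Members were named with both signals if they were sensors, effectors or Hspa5, passed 2-fold, or were among the 2 highest and 2 lowest of a role. Of these, Srp72, Spcs2 and Spcs3 are given by ratio alone. Elsewhere the 2 highest and 2 lowest of each other ER list were named. Values of other members and of other genes in those lists were added after they were seen. Python 3.11.15, pandas 2.3.3, numpy 2.4.6 and statsmodels 0.14.6 were used. Alternatives changed scaling, floor, pseudocount (50), probe set, fold threshold and summary. Protein sequences were not used here.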

Additional observations from a re-analysis of the deposited data

How the results depend on the processing

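With 1 array per genotype, signals near the floor and genes with a single probe set are the least certain, and no alternative replaces a replicate. A median was taken to have moved when it differed by more than 0.353 divided by the square root of the number of genes. Centring each array on its median, which raised the median of all genes by 0.19, moved every list median. It gave 0.17 for all members, 0.18 for chaperones, 0.30 for disulfide isomerases, 0.35 for sensors and factors, 0.049 for ER-associated degradation, 0.44 for the signal recognition particle, 0.23 for the translocon, 0.13 for signal peptidase and 0.11 for oligosaccharyltransferase. For the other ER lists it gave 0.13 for folding, 0.32 for degradation, 0.06 for translocation and 0.24 for stress regulators. Loess lowered every list median, none by enough to count as moved. It gave -0.24 for ER-associated degradation, -0.17 for oligosaccharyltransferase, -0.16 for signal peptidase and -0.046 for the translocon, the last above 0 as reported. The median over probe sets gave -0.078 for sensors and factors, -0.16 for the translocon and -0.044 for other stress regulators. The probe set closest to 0 gave -0.082 for disulfide isomerases, 0.059 for the signal recognition particle and 0.0098 for other degradation genes. Unsuffixed probe sets, those whose names end in _at with no letter before it, gave -0.28 for other translocation genes. The mean in place of the median gave 0.038 for all members and 0.31 for disulfide isomerases. The 1 member at least 2-fold higher, Pdia4, had a ratio of 0.66 with the median over probe sets and reversed to -0.082 with the probe set closest to 0, so that 0 members passed under either, and 0 passed 3-fold. At 1.5-fold, 3 members were higher and 1 was lower. Over all genes, the counts at least 2-fold higher and lower were 69 and 103 as reported, 161 and 33 after median centring, 82 and 73 after quantile normalization, 85 and 67 after loess, 42 and 79 with the median over probe sets, 39 and 74 with the probe set closest to 0, 203 and 505 with a 30th-percentile floor, 37 and 25 with a 70th-percentile floor, 964 and 1882 with no floor, and 96 and 189 with the pseudocount. Of 537 single-gene values, 525 stayed within the probe-set SD of the reported one. That count says little about stability, since many values could not move. Changing the floor left the ratios of the members that entered as they were, and median centring shifted each by 0.19, less than 0.353. With the 70th-percentile floor Ddit3 did not enter, and the sensors and factors had a median of 0.22 over 5 genes. All that moved did so through the choice of probe set. These were 4 with the median over probe sets, 4 of 43 with unsuffixed probe sets, and 3 with the probe set closest to 0, where Pdia4 also reversed.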
